A study of Mus musculus with 10 samples.

Results

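To describe MHC class I antigen presentation in libraries labelled as knockout (KO) for Arid1a, a DNA-binding subunit of the SWI/SNF chromatin remodelling complex, 10 genes of the pathway were read out of the 48897 rows that each expression table of the series holds. The 10 were chosen by symbol, as the heavy chains H2-K1 and H2-D1, the light chain B2m, the peptide transporter Tap1 and Tap2, the loading factor Tapbp, the inducible proteasome subunits Psmb8, Psmb9 and Psmb10, and the transactivator Nlrc5. Earlier results of these data were known at that choice, so counts set beside the share of all genes are no test of the list. All 10 had a row in both tables and all 10 passed the filter on low values in both.

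RNA-seq was available for 10 mouse samples in 4 groups. The first table held epithelium sorted as EpCAM+ and CD45- from the prostates of 3-month-old C57BL/6 mice: 3 control libraries (replicates A, B and C) from mice with Arid1a intact and 3 Arid1a KO libraries (A, B and C) from mice labelled Arid1aPC-/-. Control mice were not wild type, since both genotypes carried a further deletion, and in both a Probasin-driven Cre, active in prostate epithelium, made the deletions. The second table held Myc-CaP, a prostate cancer cell line from an FVB mouse with a Myc transgene: 2 libraries with an empty vector (EV) and 2 labelled Arid1a KO, made with CRISPR and a lentiviral guide. Every sample carries both the culture text of the cell line and the sorting text of the epithelium, and the labels do not say whether the 2 Myc-CaP KO libraries are 1 cell line or 2. The methods give 3 mice for the epithelium without tying a mouse to a library. They describe RNA-seq of Myc-CaP cells with and without Arid1a. A separate experiment used such cells sorted from tumours grown under the skin of FVB mice, with or without an NF-κB inhibitor. The genotype labels of these 4 libraries name neither tumour nor inhibitor. Whether they came from culture or tumour, and from separate ones, is not clear from the labels. P-values there thus measure the spread between libraries, which may be technical in part.

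Class I molecules show fragments of a cell's own proteins to CD8+ T cells. The proteasome cuts the proteins, and Psmb8, Psmb9 and Psmb10 replace its constitutive catalytic subunits Psmb5, Psmb6 and Psmb7 to form the immunoproteasome. Tap1 and Tap2 carry the peptides into the endoplasmic reticulum, where Tapbp (tapasin) holds the heavy chain and B2m next to the transporter until a peptide is bound. Interferon-gamma induces the pathway through Irf1 among other factors, and Nlrc5 works with the RFX, CREB and NF-Y factors at class I promoters. The genes are used widely as a measure of how visible a tumour cell is to T cells.

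Of the 10 genes, 7 lie on chromosome 17 within 1.35 Mb, in the major histocompatibility complex (GRCm38, GENCODE M21). These are Tapbp (chr17:33915899-33929292), H2-K1 (chr17:33996017-34000347), Psmb9 (chr17:34181987-34187764), Tap1 (chr17:34187553-34197225), Psmb8 (chr17:34197721-34201454), Tap2 (chr17:34203527-34216321) and H2-D1 (chr17:35262730-35267499). B2m lies on chromosome 2 (chr2:122147686-122153083), and Psmb10 (chr8:105935735-105938444) and Nlrc5 (chr8:94434356-94527272) lie on chromosome 8. Tap1 and Psmb9 are read away from each other, and their gene models overlap by 212 bases. All of B2m (5398 bases) lies inside Patl2 on the opposite strand. Strand-specific counting, as stated in the methods, would tell the 2 apart if it made the deposited values. Tapbp shares 3422 bases with Zbtb22 on the same strand, so reads there could not be given to 1 gene by strand. H2-K1 and H2-D1 belong to a family of near copies: 8.79% of the 50-base runs of the longest H2-K1 coding transcript and 14.3% of those of H2-D1 were found in transcripts of another gene. The share was 2.0% for Tapbp, 0.861% for Tap1, 0.737% for Tap2 and 0 for the other 5 genes. How reads that fit several genes were assigned is stated only as the best match per read, so the 2 heavy chain values are uncertain to that extent.

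Promoters of 8 of the 10 genes were found in RefSeq (GRCm38.p6), all but Tap2 and Nlrc5. The 4 shown here are the 250 bases before the start site of the 2 heavy chains, the light chain and the transporter subunit Tap1, 5′ to 3′ on the strand of the gene, since these are the surface molecule and the pump that feeds it. Capitals mark matches, on either strand, to GGG and CCC with 5 bases between them (an NF-κB type of motif), GAANNGAAA or GAAANNGAA (motifs of interferon regulatory factors), TGACG (the core bound by CREB-type factors) and ATTGG (the Y box bound by NF-Y).
H2-K1, chr17:34000348-34000597, minus strand: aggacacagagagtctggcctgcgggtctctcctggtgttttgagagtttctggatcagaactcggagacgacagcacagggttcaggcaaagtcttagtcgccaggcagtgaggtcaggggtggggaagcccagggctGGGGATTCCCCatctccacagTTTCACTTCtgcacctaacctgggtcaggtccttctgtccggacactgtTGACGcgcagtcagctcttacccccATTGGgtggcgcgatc
H2-D1, chr17:35262844-35263093, plus strand: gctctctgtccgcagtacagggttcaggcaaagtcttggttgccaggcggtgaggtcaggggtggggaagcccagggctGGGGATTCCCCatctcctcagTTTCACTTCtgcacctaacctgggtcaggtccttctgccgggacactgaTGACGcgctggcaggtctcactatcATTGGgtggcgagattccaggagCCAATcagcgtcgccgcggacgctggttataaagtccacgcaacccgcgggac
B2m, chr2:122147437-122147686, plus strand: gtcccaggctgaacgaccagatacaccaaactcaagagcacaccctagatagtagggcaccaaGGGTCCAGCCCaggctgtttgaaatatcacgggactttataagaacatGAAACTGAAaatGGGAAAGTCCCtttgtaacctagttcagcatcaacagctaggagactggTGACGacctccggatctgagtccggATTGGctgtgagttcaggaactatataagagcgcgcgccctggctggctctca
Tap1, chr17:34187306-34187555, plus strand: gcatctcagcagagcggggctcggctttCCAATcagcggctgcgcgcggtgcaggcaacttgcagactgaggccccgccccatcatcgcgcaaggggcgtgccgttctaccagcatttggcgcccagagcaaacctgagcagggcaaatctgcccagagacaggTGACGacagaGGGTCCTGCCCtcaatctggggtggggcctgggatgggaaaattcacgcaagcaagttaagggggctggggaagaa
The motifs were chosen after these sequences were seen, and the matches are a description of letters, not of bound sites. H2-K1, H2-D1 and B2m each held all 4 kinds. In all 3 the ATTGG began 25 bases after the first base of the TGACG. In H2-K1 and H2-D1 the interferon-type match began 21 bases after the first base of GGGGATTCCCC, and the TGACG 70 bases after that base. Lined up on their longest common run of 47 bases, these 2 promoters were identical at 87.4% of 190 bases, so they are near copies and not independent examples. Over 27025 promoters of 300 bases (250 before and 50 from the start), 13.8% held the NF-κB type, 14.9% held GAANNGAAA or GAAANNGAA, 21% held TGACG, 37.9% held ATTGG and 0.0925% (25 promoters) held all 4. No matches overlapped in the windows shown. Over the same 300 bases, Tap1 and Psmb9 held all kinds but the interferon type, Tapbp held only ATTGG, and Psmb8 and Psmb10 held none. A further motif searched, TTCNNNGAA, matched in Psmb8 alone of the 8 promoters found, against 8.47% of all promoters. Tap1 and Psmb9 start 226 bases apart in opposite directions, so most of the Tap1 stretch shown is the Psmb9 promoter read from the other strand.

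The labels were checked first. In Myc-CaP, Arid1a was 60.5 and 61.0 TPM with the empty vector and 39.5 and 40.3 TPM in the KO libraries, and it fell by 0.59 on the log2 scale (adjusted p = 0.010). TPM and RPKM are both reads scaled by gene length and library size, and each log2 fold change here is on the log2(value + 1) scale. In epithelium, Arid1a was 27.8, 21.9 and 26.5 RPKM in control and 31.1, 28.8 and 30.8 RPKM in the libraries labelled KO. It was not lower in them (log2 fold change 0.25, adjusted p = 0.054). The tables hold 1 value per gene, so the deleted exons were not analysed here. Below, KO in epithelium means the libraries labelled KO.

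Other marker genes moved between the epithelium groups. Over all 16275 genes tested, 27.5% rose and 29.6% fell at an adjusted p under 0.05. The marker counts below stand beside these shares. Epcam, the sorting marker, was 279 to 351 RPKM in control and 183 to 225 RPKM in KO and fell by 0.59 on the log2 scale (adjusted p = 0.0041). Ptprc, which encodes CD45, was not absent despite the sort: it was 26.0 to 30.3 RPKM in control and 56.2 to 58.1 RPKM in KO, and rose by 0.98 (adjusted p = 5.4e-05). Of 8 epithelial markers 2 rose and 3 fell, Krt19, the most abundant, among the 3 (1913 to 2861 against 1346 to 1643 RPKM). The sum of the 8 overlapped, at 5032 to 6634 RPKM in control and 5322 to 5805 RPKM in KO. Of 7 general leukocyte markers 5 rose and 1, Cd52, fell, with a summed level of 767 to 801 RPKM in control and 868 to 930 RPKM in KO, and Laptm5, the most abundant, rose from 176 to 202 RPKM to 343 to 389 RPKM. Of 10 macrophage and dendritic cell markers 6 rose (sum 3510 to 3855 against 4522 to 4884 RPKM), although Cd74, the most abundant, overlapped between the groups at 2468 to 2756 and 2128 to 2502 RPKM. Of 5 B cell markers tested 4 rose (Ighm most abundant, 115 to 130 against 419 to 731 RPKM), of 9 T cell markers 6 rose (Trac most abundant in KO, 6.07 to 7.91 against 9.90 to 12.8 RPKM), of 6 neutrophil markers tested 3 rose (S100a9, the most abundant, overlapped at 165 to 231 and 183 to 319 RPKM), and of 3 natural killer cell markers tested Gzmb rose and Nkg7 fell. Of 6 fibroblast markers 3 fell (Col1a1, the most abundant, overlapped at 473 to 697 and 490 to 752 RPKM) and of 6 endothelial markers 1 rose (Pecam1, the most abundant, overlapped at 10.8 to 14.8 and 14.3 to 16.8 RPKM). Seminal vesicle genes fell from a sum of 19464 to 21979 RPKM in control to 647 to 1632 RPKM in KO, with all 8 called and Svs5 the most abundant. In bulk samples, more cells of a type and more RNA per cell cannot be told apart, and leukocytes themselves express class I genes at high level. The part of these markers in the class I values was not tested.

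Myc-CaP libraries held almost no leukocyte transcript. Ptprc was listed at 0 in 3 of 4 libraries and at 0.044 TPM in the other, and the 7 leukocyte markers summed to 3.53 to 5.62 TPM, most of it Cd52. Epithelial markers were also scarce, with Epcam at 0 to 0.13 TPM, which goes against an epithelial profile. Krt8, the most abundant of them, was 1.07 and 0.79 TPM with the empty vector and 40.3 and 38.8 TPM in KO. Col1a1, the most abundant fibroblast marker, followed the replicate number and not the group, at 0.21 and 0.35 TPM in the 2 libraries numbered 1 and 19.4 and 7.45 TPM in the 2 numbered 2.

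In epithelium the surface molecule was very abundant. Levels per gene length in control ran from B2m (2756 ± 175 RPKM, SD, n = 3, rank 10 of 16275 tested genes) through H2-D1 (1629 ± 136), H2-K1 (1547 ± 190), Tapbp (233 ± 9.44), Psmb8 (137 ± 28.9), Tap2 (77.6 ± 12), Tap1 (64.4 ± 3.20), Psmb9 (56.7 ± 8.43) and Psmb10 (56.3 ± 13.6) to Nlrc5 (5.52 ± 0.339). Neighbours in this order whose 3 libraries overlapped were H2-D1 and H2-K1, Tap1 and Psmb9, and Psmb9 and Psmb10. In KO libraries B2m and H2-D1 overlapped instead, and H2-K1 stood apart below them. B2m ranked 12, H2-D1 moved from rank 19 to 15 and H2-K1 from 21 to 25. Nlrc5 remained the lowest of the 10 in both groups.

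In epithelium the libraries labelled KO, in which Arid1a itself was not lower, had lower B2m, H2-K1 and Psmb9 and higher Nlrc5, while the other 6 genes did not pass the test. With limma and Benjamini-Hochberg adjustment over all genes, 1 of 10 rose and 3 of 10 fell at an adjusted p under 0.05. The background was large: 27.5% of all 16275 tested genes rose and 29.6% fell by the same rule, 57.1% in all. The count of 4 of 10 is therefore not above the background. By the thresholds the study used (1.5-fold or more, with an unadjusted p under 0.05), 1 rose (Nlrc5) and 1 fell (B2m), against 11.8% and 13.0% of all genes (24.8% either way). The KO and control libraries did not overlap for 6 of 10 genes, 1 higher and 5 lower, against 32.4% higher and 34.4% lower over all genes (66.7% either way). The median log2 fold change of the 10 was -0.22, beside -0.03 over all genes tested.

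**Figure D1:**
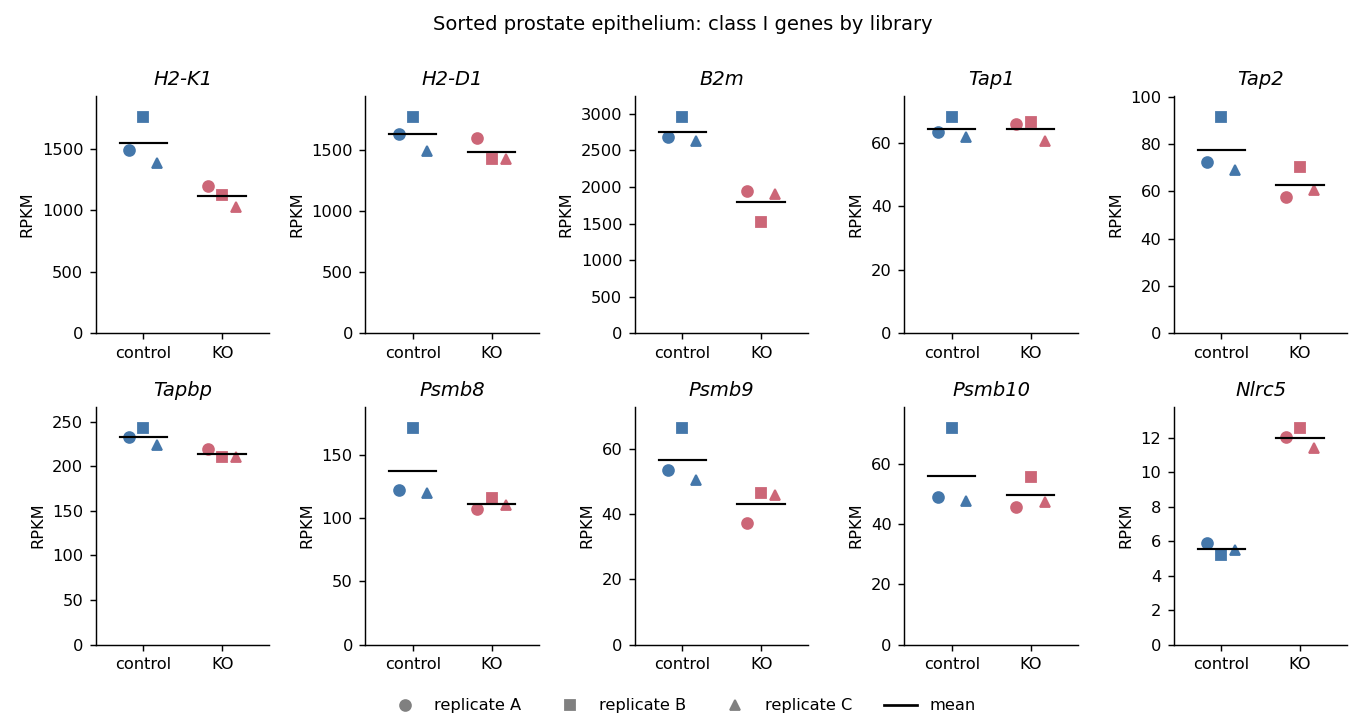
RPKM of each of the 10 class I genes in the 3 control and 3 Arid1a KO epithelium libraries, with the vertical axis from 0, 1 symbol per replicate letter and a line at the group mean. B2m, H2-K1, Psmb9, Tapbp and Psmb8 lie lower in all 3 KO libraries than in any control, the last 2 without passing the test. Nlrc5 lies higher in all 3. Over all genes 34.4% lay lower and 32.4% higher without overlap. Control replicate B is the highest control for 9 of the 10 genes.

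B2m, the light chain that every classical class I molecule needs to reach the surface, fell furthest. It was 2687, 2954 and 2626 RPKM in control and 1945, 1528 and 1905 RPKM in KO. All 3 KO libraries lay below all 3 controls, and the mean fell by 35% (log2 fold change -0.63, SE 0.14, adjusted p = 0.0063). The call was lost when the libraries were quantile normalized (-0.14, adjusted p = 0.21) and when no filter was applied to low genes (adjusted p = 0.071).

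H2-K1, one of the 2 classical heavy chains of this strain, also fell. It was 1494, 1757 and 1389 RPKM in control and 1198, 1121 and 1025 RPKM in KO, without overlap. The mean fell by 28% (log2 fold change -0.47, SE 0.13, adjusted p = 0.015). The call was lost with quantile normalization (-0.18, adjusted p = 0.18), with no filter (0.083) and without KO replicate C (-0.41, adjusted p = 0.053). H2-D1, the other classical heavy chain, was 1629, 1765 and 1493 RPKM in control and 1599, 1421 and 1426 RPKM in KO. The groups overlapped, and the log2 fold change was -0.14 with a 95% confidence interval from -0.40 to 0.13 (adjusted p = 0.34). The ratio of H2-K1 to H2-D1 within a library was 0.917 to 0.995 in control and 0.719 to 0.788 in KO. This ratio does not depend on how libraries are scaled to each other, and it did not overlap between the groups, with a log2 difference of -0.33 that ran from -0.37 to -0.30 when each library was left out in turn.

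The decline of B2m and H2-K1 was close in size to that of Epcam. B2m per Epcam was 8.41 to 9.62 in control and 7.86 to 10.6 in KO, and H2-K1 per Epcam was 4.94 to 5.35 and 4.56 to 6.55, so both overlapped. Against Krt8, a luminal keratin that differed little between the groups, B2m was 3.01 to 3.44 in control and 1.76 to 2.23 in KO, and H2-K1 was 1.71 to 1.91 and 1.16 to 1.38, without overlap. Of the 8 epithelial markers 2 rose and 3 fell, and their sum overlapped between the groups. These ratios were chosen after the values were seen and carry no test.

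The transporter and the loading factor moved less. Tap1 was 63.5, 68.0 and 61.8 RPKM in control and 65.8, 66.5 and 60.6 RPKM in KO, with full overlap (log2 fold change -0.0032, 95% confidence interval -0.16 to 0.15, adjusted p = 0.97). Tap2, its partner in the same pump, was 72.5, 91.3 and 68.8 RPKM in control and 57.7, 70.4 and 60.4 RPKM in KO. Only KO replicate B reached into the control range, and the log2 fold change was -0.29 (95% confidence interval -0.58 to -0.0091, adjusted p = 0.073). The ratio of Tap1 to Tap2 was 0.745 to 0.898 in control and 0.945 to 1.14 in KO, without overlap. Tapbp was 233, 243 and 224 RPKM in control and 220, 211 and 211 RPKM in KO, and although the groups did not overlap its log2 fold change of -0.12 did not pass (95% confidence interval -0.28 to 0.032, adjusted p = 0.15).

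Of the immunoproteasome subunits only Psmb9 passed. Psmb9 was 53.4, 66.3 and 50.5 RPKM in control and 37.4, 46.5 and 45.9 RPKM in KO, and the mean fell by 23.8% (log2 fold change -0.38, SE 0.12, adjusted p = 0.032). This call depended on single libraries: adjusted p was 0.10 without KO replicate A, 0.069 without control replicate B and 0.0502 without control replicate A. It also failed with no filter (adjusted p = 0.076), when every library was rescaled to the same sum (-0.21, adjusted p = 0.14) and when a trend with gene length was removed (-0.30, adjusted p = 0.061). Psmb8 was 122, 171 and 119 RPKM in control and 107, 116 and 110 RPKM in KO, without overlap (log2 fold change -0.28, 95% confidence interval -0.60 to 0.033, adjusted p = 0.11). Psmb10 was 49.1, 72.0 and 47.8 RPKM in control and 45.8, 55.8 and 47.5 RPKM in KO, with overlap (-0.16, 95% confidence interval -0.53 to 0.22, adjusted p = 0.43). For both, control replicate B stood well above the other 2 controls. That library was the highest control for 9 of the 10 genes and the lowest for Nlrc5, and it was also the deepest, at an estimated 36.4 M reads against 28.8 to 31.2 M in the other 5.

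Of the 3 constitutive subunits that these replace, 2 fell, where 29.6% of all genes fell. Psmb6 fell by 0.30 (adjusted p = 0.032) and Psmb7 by 0.32 (adjusted p = 0.035) on the log2 scale, and Psmb5 had a log2 fold change of -0.19 (adjusted p = 0.26). None of the 3 was called with no filter, when libraries were rescaled to the same sum, when the length trend was removed, or without any 1 of the KO libraries. The ratio of inducible to constitutive subunit overlapped between the groups for all 3 pairs. Psmb8 over Psmb5 was 1.22 to 1.26 in control and 1.12 to 1.24 in KO, Psmb9 over Psmb6 was 0.475 to 0.512 and 0.394 to 0.517, and Psmb10 over Psmb7 was 0.563 to 0.674 and 0.637 to 0.774.

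Nlrc5, the class I transactivator, was the only 1 of the 10 that rose. It was 5.88, 5.20 and 5.47 RPKM in control and 12.1, 12.5 and 11.4 RPKM in KO, so the KO mean was 2.18 times the control mean (log2 fold change 1.0, SE 0.07, adjusted p = 5.1e-05). The call held under every alternative tried, with an adjusted p of 0.00051 at most. Nlrc5 is also expressed by leukocytes, and Nlrc5 per Ptprc was 0.185 to 0.200 in control and 0.198 to 0.216 in KO, with overlap. This ratio was chosen after the values were seen, and Ptprc is 1 of 7 general leukocyte markers. Of the 7, 5 rose and Cd52 fell, and their sum had a mean of 788 RPKM in control and 898 RPKM in KO. The part of leukocyte transcript in the Nlrc5 change was not tested. None of the 9 structural and processing genes listed here rose with it.

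The way libraries were scaled bears on these directions. The summed RPKM was lower in KO libraries (397999 to 403031) than in control (441646 to 473331). Rescaling every library to the same sum moved the median over all genes from -0.03 to 0.11 and the share of calls that were higher from 48.1% to 64.6%, and left 5 of the 10 genes above 0 and 5 below. H2-D1, Tap1, Tapbp and Psmb10 then changed sign, to 0.043, 0.17, 0.054 and 0.019, none of them called. B2m (-0.45, adjusted p = 0.012), H2-K1 (-0.29, adjusted p = 0.044) and Nlrc5 (1.15) were still called.

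In Myc-CaP the structural and processing genes were higher in KO. Of the 10 genes 9 rose at an adjusted p under 0.05, and none fell, where 4.54% of all 13974 tested genes rose and 1.89% fell, 6.43% in all. Past the thresholds of the study 6 of 10 were higher and none lower, against 4.62% and 1.66% of all genes (6.28% either way). All 10 genes were higher in both KO libraries than in both EV libraries, against 24.9% of all genes higher and 26.6% lower (51.5% either way). The median log2 fold change of the 10 was 0.84, beside -0.01 over all genes. With 2 libraries a group these calls need all 4 of them: when 1 library was left out, between 0 and 1 of the 10 genes (Psmb8, without EV replicate 2) and between 0 and 53 genes in all were called, while the sign of all 10 stayed positive in every such fit. With no filter, or with a prior variance that did not follow expression, 5 of 10 were called, and these were Tap1, Tapbp, Psmb8, Psmb9 and Psmb10.

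**Figure D2:**
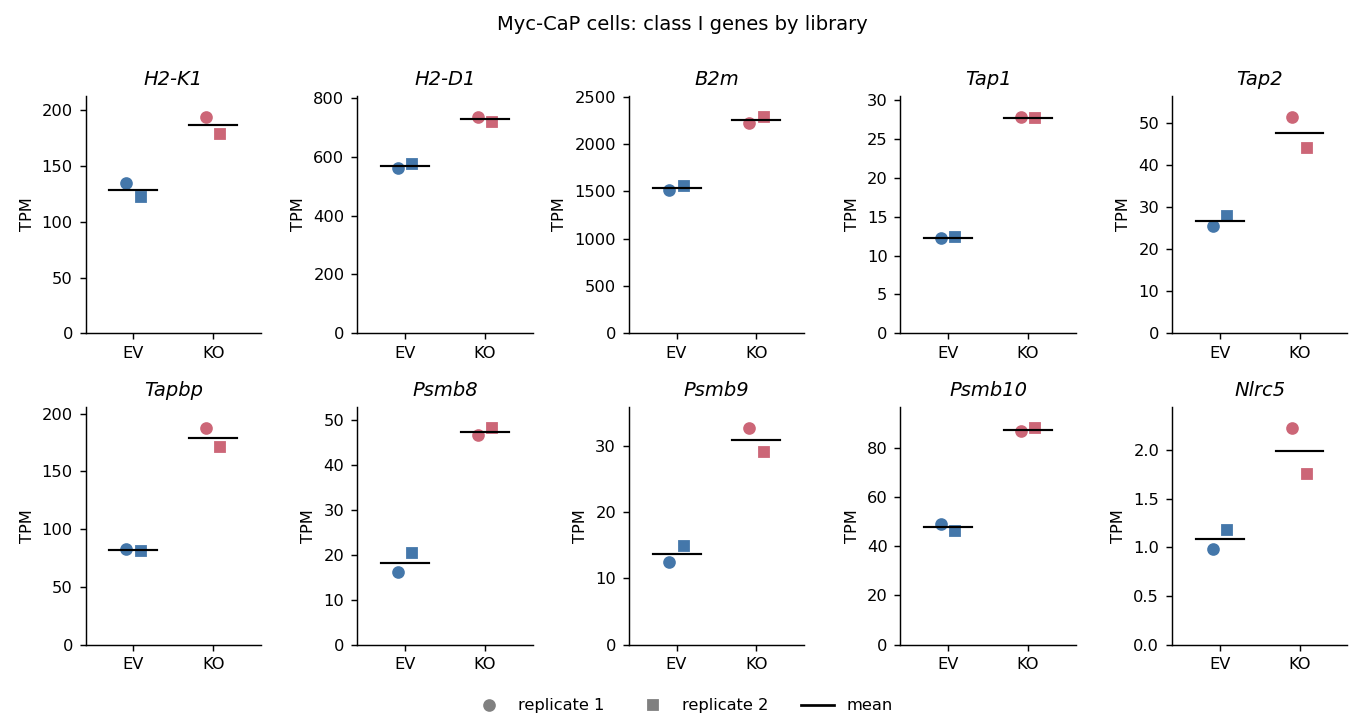
TPM of each of the 10 class I genes in the 2 empty vector (EV) and 2 Arid1a KO Myc-CaP libraries, with the vertical axis from 0, 1 symbol per replicate number and a line at the group mean. Both KO libraries lie above both EV libraries in every panel, including Nlrc5, which did not pass the test.

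The immunoproteasome subunits rose, Psmb8 furthest of the 10 genes. It was 16.1 and 20.4 TPM with the empty vector and 46.7 and 48.2 TPM in KO (log2 fold change 1.34, SE 0.12, adjusted p = 0.0081), 2.60 times the EV mean. Psmb9 went from 12.5 and 14.9 TPM to 32.6 and 29.0 TPM (1.12, SE 0.12, adjusted p = 0.012), and Psmb10 from 49.0 and 46.3 TPM to 87.0 and 87.9 TPM (0.86, SE 0.060, adjusted p = 0.0049). The constitutive subunits did not pass: Psmb5 was 203 to 224 TPM in EV and 203 to 213 TPM in KO (log2 fold change -0.037, 95% confidence interval -0.22 to 0.15), and Psmb6 (-0.087) and Psmb7 (-0.084) had intervals that included 0. Psmb8 over Psmb5 was thus 0.0718 and 0.10 in EV and 0.219 and 0.238 in KO, Psmb9 over Psmb6 was 0.0542 and 0.0772 against 0.161 and 0.149, and Psmb10 over Psmb7 was 0.105 and 0.103 against 0.197 and 0.208. The log2 differences of the 3 ratios were 1.43, 1.26 and 0.96, and they were between 0.92 and 1.67 when each library was left out.

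**Figure D3:**
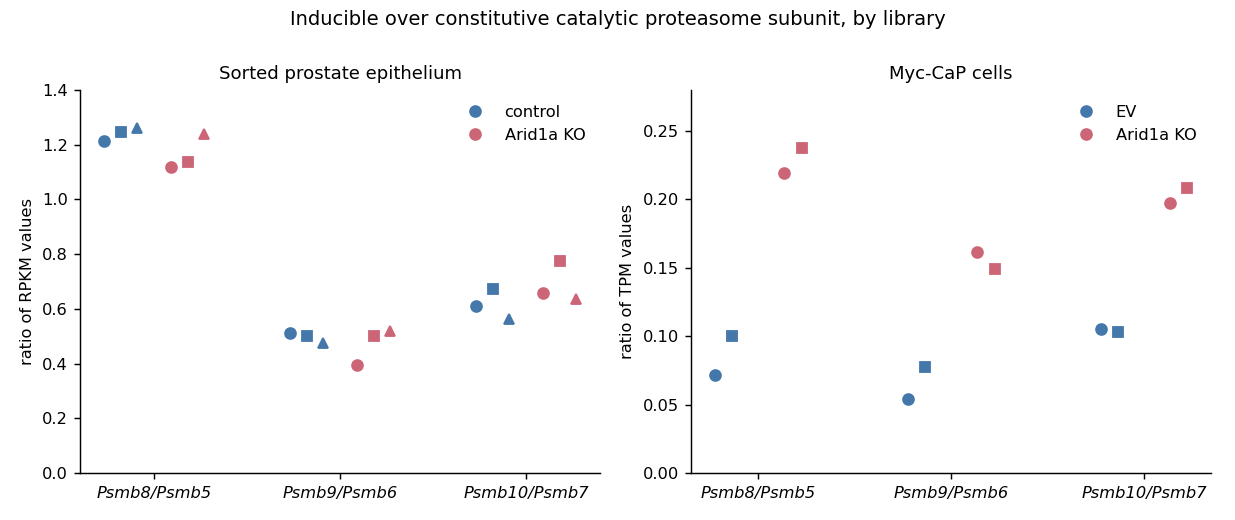
Ratio of each inducible catalytic proteasome subunit to the constitutive subunit it replaces, per library, for epithelium (RPKM, left) and Myc-CaP (TPM, right), with circles, squares and triangles for replicates A, B and C or circles and squares for replicates 1 and 2, on axes that start at 0 and differ in range. Control and KO overlap in epithelium, and both KO libraries lie above both EV libraries in Myc-CaP.

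The peptide transporter and tapasin rose as well. Tap1 was 12.3 TPM in both EV libraries and 27.8 and 27.6 TPM in KO (log2 fold change 1.11, SE 0.07, adjusted p = 0.0042). Tap2 was 25.6 and 28.0 TPM in EV and 51.4 and 44.1 TPM in KO (0.81, SE 0.10, adjusted p = 0.019), and the ratio of Tap1 to Tap2 was 0.442 and 0.480 in EV and 0.541 and 0.627 in KO. Tapbp was 82.8 and 81.2 TPM in EV and 187 and 171 TPM in KO (1.12, SE 0.07, adjusted p = 0.0035). Replicates of a group lay closer to each other than to the other group for all 3 genes. The Tap2 call was lost with no filter (adjusted p = 0.057) and without the eBayes trend (adjusted p = 0.058).

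The surface molecule rose less in proportion. B2m was 1510 and 1557 TPM in EV and 2225 and 2282 TPM in KO (log2 fold change 0.56, SE 0.06, adjusted p = 0.011), which moved it from rank 90 to rank 60 of the tested genes. H2-D1 was 561 and 576 TPM in EV and 734 and 719 TPM in KO (0.35, SE 0.05, adjusted p = 0.027). H2-K1 was 135 and 123 TPM in EV and 194 and 179 TPM in KO (0.53, SE 0.08, adjusted p = 0.026). None of the 3 reached 1.5 times the EV mean, and H2-K1 over B2m overlapped between the groups at 0.0788 to 0.0895 and 0.0785 to 0.0872.

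Nlrc5 was low in Myc-CaP and did not pass. It was 0.982 and 1.18 TPM in EV and 2.22 and 1.75 TPM in KO, with a log2 fold change of 0.52 (95% confidence interval 0.042 to 0.99, adjusted p = 0.20). On this scale the added 1 shrinks the change of a gene near 1 TPM, since the ratio of the means was 1.84, like that of Psmb10 (1.84) and Tap2 (1.78). In EV libraries its level was far below the 12.3 TPM of Tap1, the next lowest of the 10.

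**Figure D4:**
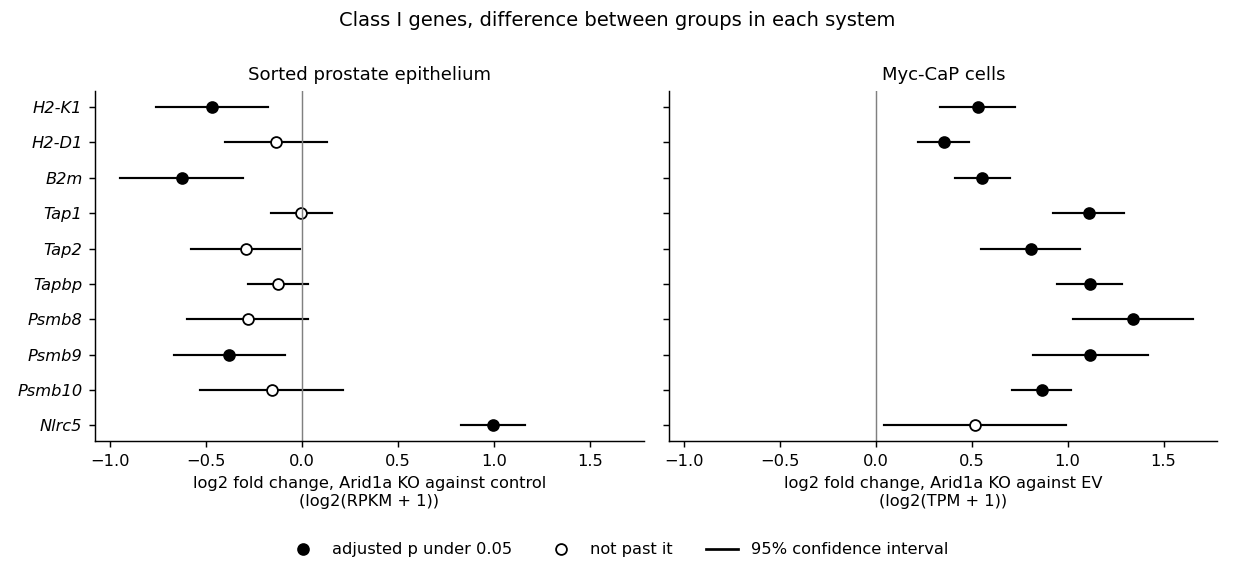
Log2 fold change of Arid1a KO against control for the 10 class I genes in epithelium (left, log2(RPKM + 1)) and Myc-CaP (right, log2(TPM + 1)), with bars for the 95% confidence interval and filled points for an adjusted p under 0.05. In epithelium Nlrc5 alone lies far above 0, and in Myc-CaP all 10 genes lie above 0 with Psmb8 the furthest at 1.34.

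The 2 systems were set side by side without a test, because the tables differ in unit, strain, cell source and number of libraries and were normalized separately. H2-K1, B2m, Tapbp, Psmb8 and Psmb9 were lower in every KO library of the epithelium and higher in every KO library of Myc-CaP. Of the 12123 genes tested in both tables, 9.82% were lower in epithelium and higher in Myc-CaP without overlap, and 19.2% had opposite directions in the 2 systems either way. Nlrc5 was higher in KO in both. Levels also differ in kind: the ratio of H2-K1 to H2-D1 was near 1 in control epithelium and 0.213 to 0.241 in EV Myc-CaP. The epithelium is C57BL/6 (haplotype H-2b), as is the reference genome, whereas FVB carries H-2q, so a low H2 value in Myc-CaP counts only reads that matched the reference allele. This cannot be told apart from a low transcript level, but it is shared by EV and KO.

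Of 26 other class I and class I-like heavy chains, most of which show peptides or lipids to specialised lymphocytes or bind other ligands, 22 had a row. For this list and the lists below, the shares of all genes called were 27.5% higher and 29.6% lower in epithelium. In Myc-CaP they were 4.54% and 1.89%. In epithelium 17 were tested, 4 rose and 3 fell, with a median of 0.05. The largest changes were in H2-Q2 (3.96 to 5.41 against 1.19 to 1.75 RPKM, log2 fold change -1.20, adjusted p = 0.00034), H2-Q5 (20.2 to 24 against 32.4 to 32.6 RPKM, 0.54, adjusted p = 0.00065) and H2-T23 (261 to 346 against 194 to 219 RPKM, -0.50, adjusted p = 0.0080). H2-T23 encodes Qa-1, a ligand of an inhibitory receptor of natural killer cells. In Myc-CaP 10 were tested, 3 rose and none fell, with a median of 0.45, and the 3 were Fcgrt (3.94 and 4.75 against 8.0 and 8.18 TPM, 0.77, adjusted p = 0.036), the neonatal Fc receptor, H2-Q4 (8.14 and 8.53 against 15.8 and 13.7 TPM, 0.75, adjusted p = 0.025) and H2-T22 (6.90 and 5.97 against 12.2 and 10.7 TPM, 0.75, adjusted p = 0.036). H2-Q2 and H2-Q5, measured in epithelium, were listed at 0 in all 4 Myc-CaP libraries, where the haplotype stated above applies. Runs shared between genes were counted only for the 10 members, of which H2-D1 shared most with H2-Q1 of this list. The uncertainty in assigning reads, stated above for the 2 classical heavy chains, was not measured for these genes.

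The list of peptide loading and trimming factors did not move as 1 block. In epithelium 3 of 10 rose and 2 fell (median 0.01), led by Lnpep, an aminopeptidase that trims peptides for cross-presentation (3.07 to 4.94 against 10.6 to 11.9 RPKM, log2 fold change 1.25, adjusted p = 0.00030), Prkcsh, a subunit of the glucosidase that prepares glycans for calnexin (71.9 to 81.3 against 57.2 to 60.6 RPKM, -0.36, adjusted p = 0.0037), and Erap1, the peptide trimmer of the endoplasmic reticulum (9.0 to 11.1 against 13.0 to 14.1 RPKM, 0.35, adjusted p = 0.012). In Myc-CaP 1 of 10 rose and 1 fell (median 0.03). These were Erap1 (16.9 and 18.0 against 29.7 and 35.5 TPM, 0.86, adjusted p = 0.019) and the chaperone Calr (1344 and 1306 against 1000 and 976 TPM, -0.42, adjusted p = 0.019).

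Among the other proteasome genes in Myc-CaP, none of the 11 other core subunits passed (median -0.04), and of 9 activators and assembly factors 2 rose, Psme2 (96.4 and 108 against 194 and 195 TPM, log2 fold change 0.92, adjusted p = 0.0060) and Psme1 (145 and 146 against 226 and 210 TPM, 0.58, adjusted p = 0.011), the 2 chains of the PA28 cap that interferon-gamma induces. In epithelium 5 of the 11 other core subunits fell and none rose (median -0.22), led by Psmb1 (-0.40), Psmb4 (-0.37) and Psmb3 (-0.32). These calls depended on the scaling: 2 were lower with no filter, 1 lower and 1 higher with the length trend removed (median -0.062), and none lower and 1 higher when rescaled to the same sum (median -0.040), and between 0 (without KO replicate A) and 7 (without control replicate A) were lower with a library left out. Of the 9 activators and assembly factors 4 fell and 2 rose, with Psmg4 (-0.61), Psmg2 (-0.53) and Pomp (-0.42), all chaperones of proteasome assembly, the largest, and 2 were lower with no filter, after rescaling to 1 sum per library and whichever KO library was left out. Psme1 fell by 0.30 (181 to 234 against 154 to 164 RPKM, adjusted p = 0.045), and Psme2 had a log2 fold change of -0.24 (80.7 to 118 against 77.8 to 82.5 RPKM, adjusted p = 0.16).

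**Figure D5:**
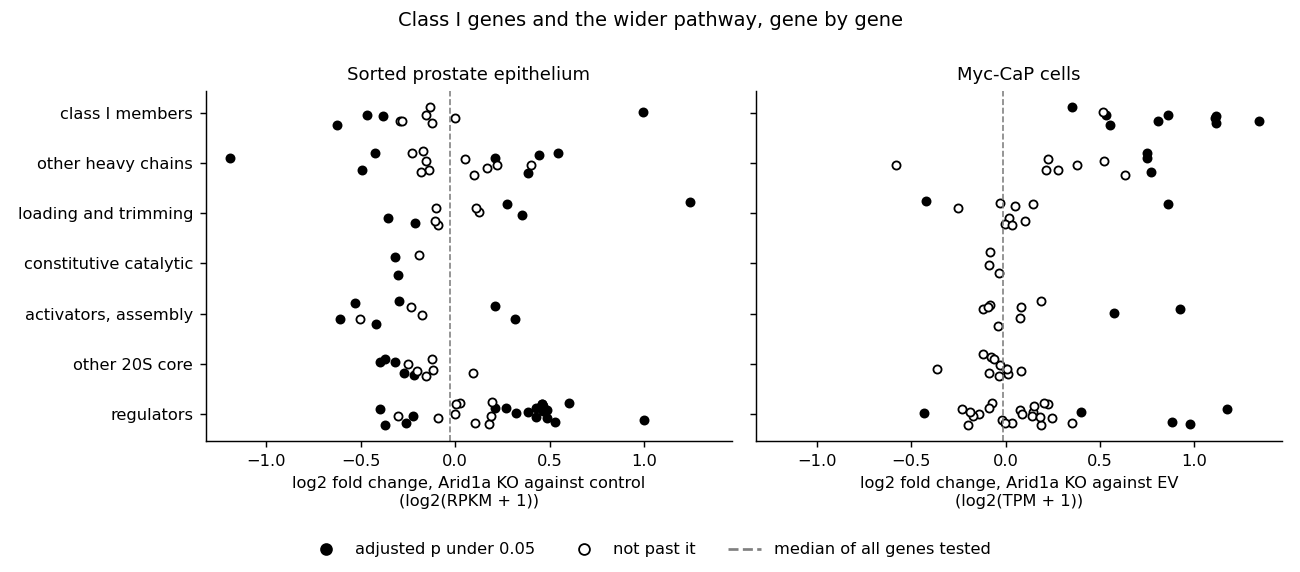
Log2 fold change of Arid1a KO against control for every tested gene of the class I members and of 6 wider lists, in epithelium (left) and Myc-CaP (right), with filled points for an adjusted p under 0.05, a dashed line at the median of all genes tested and vertical scatter only to separate points. Regulators lie mostly to the right in epithelium (median 0.24), and in Myc-CaP the 10 class I genes lie to the right of the 11 other core proteasome subunits.

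Genes on the list of class I regulators lay mostly above 0 in epithelium. The list holds transcription factors together with interferon receptors, their kinases and the inhibitors Socs1 and Socs3, so it is not a list of activators. Of 28 genes 22 had a log2 fold change above 0. By the test 15 rose and 4 fell (median 0.24), where 27.5% of all genes rose and 29.6% fell. Under the alternatives tried, 12 to 19 rose and 1 to 4 fell. Large changes were seen in Jak2, a kinase of the interferon-gamma receptor (7.51 to 8.46 against 15.7 to 19.3 RPKM, log2 fold change 1.0, adjusted p = 0.00012), and in Nfya, a subunit of NF-Y (11.4 to 12.6 against 17.4 to 19.1 RPKM, 0.53, adjusted p = 0.00064). Irf1, an interferon-induced activator, went the other way, from 62.0 to 67.9 RPKM in control to 48.0 to 54.0 RPKM in KO (-0.37, adjusted p = 0.0036). Rfx5 (0.18, adjusted p = 0.088) and Ciita, the class II transactivator (0.19, adjusted p = 0.21), did not pass. Of 9 interferon genes 3 were tested: Ifng fell from 0.751 to 1.45 RPKM in control to 0.143 to 0.222 RPKM in KO (-0.83, adjusted p = 0.0015), Ifnb1 fell (-0.62, adjusted p = 0.043) with groups that overlapped, and Ifne rose (0.95, adjusted p = 0.00026). Ifng is made by T and natural killer cells and not by epithelium. Of the 9 T cell markers 6 rose and none fell (sum 34.8 to 41.1 against 52.7 to 58.9 RPKM), and of the 3 natural killer cell markers tested Gzmb rose and Nkg7 fell from 6.02 to 7.35 RPKM to 2.26 to 2.93 RPKM. The cell source of the Ifng change was not tested.

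In Myc-CaP 26 of the 28 regulators were tested, 4 rose and 1 fell (median 0.11). Stat2, which acts downstream of type I interferon, went from 13.3 and 11.3 TPM to 23.9 and 26.4 TPM (log2 fold change 0.98, adjusted p = 0.014) and Jak2 from 16.2 and 18.8 TPM to 31.7 and 34.2 TPM (0.88, adjusted p = 0.014). Irf1 did not pass, at 21.5 and 20.6 against 23.5 and 23.3 TPM (0.14, 95% confidence interval -0.038 to 0.33, adjusted p = 0.32), and neither did Rfx5 (-0.021, adjusted p = 0.95). Ciita was at 0.10 TPM or less in all 4 libraries. No interferon gene of the 9 passed the filter on low values, and Ifng was listed at 0 in all 4.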

How the data were processed

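RNA-seq values of 10 mouse samples in 4 groups, taken from the genotype labels, were used as deposited. Per the methods, the authors mapped reads with TopHat2 (GRCm38/mm10, best match per read) and took strand-specific gene counts with HTSeq-count. The submitters' processing notes name HISAT2 and DESeq2. The authors deposited the epithelium libraries as RPKM and the Myc-CaP libraries as TPM. The gene lengths and annotation behind both units are not given in the sources used here, and no counts were used, so no count model was fitted.

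The sequencing depth of the epithelium libraries, read from the steps between low RPKM values, was 28.8 to 36.4 M reads. TPM keeps no absolute depth, so precision there rests on the spread between libraries. Values were taken to log2(value + 1), genes whose mean over all libraries of the table reached 0.5 were kept, and limma 3.58.1 in R 4.3.3 (lmFit, then eBayes with a trend) was run on the 2 tables separately, KO against control without a block. P-values were adjusted by Benjamini-Hochberg over all genes of a table (16275 in epithelium, 13974 in Myc-CaP), with calls made under an adjusted p of 0.05. Intervals are at 95%.

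The members and lists were chosen with earlier results of these data known. Named are all 10 members, in each wider list and table the 3 called genes with the largest absolute log2 fold change, Psmb5, Psmb6, Psmb7, Psme1, Psme2, Irf1, Rfx5 and Ciita, and of each marker list the most abundant gene, with Ptprc and Epcam. Some items that this rule names, and 1 allele that both epithelium genotypes share, are not reported here. Cd52, Krt8, Gzmb, Nkg7 and the interferon genes were named after their values were seen. Ratios of 2 genes and promoter motifs are descriptions. Alternatives were a pseudocount of 0.1, no filter, a mean of at least 5, quantile normalization, the same sum per library, removal of a gene length trend (lengths known for 89.1% and 85.5% of tested genes), eBayes without a trend, the replicate as a block, and each library left out. Replicate letters did not pair the epithelium libraries.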

Additional observations from a re-analysis of the deposited data

Results flagged for a closer look

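Of the 10 class I genes, 5 moved one way in every KO library of the epithelium and the opposite way in every KO library of Myc-CaP, relative to the range of their own controls. Over the 12123 genes tested in both tables, 19.2% had such opposite directions, 9.82% with the lower values in epithelium, as for these 5. The difference between the 2 systems was not tested, since they were measured in separate tables with different units. H2-K1 had a log2 fold change of -0.47 in epithelium and 0.53 in Myc-CaP, and B2m one of -0.63 and 0.56. For Tapbp the values were -0.12 and 1.12, for Psmb8 -0.28 and 1.34, and for Psmb9 -0.38 and 1.12. In epithelium only H2-K1, B2m and Psmb9 of these 5 were called, and Tapbp changed sign when libraries were rescaled to the same sum.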

How the results depend on the processing

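In epithelium, Nlrc5 was called higher in all 14 alternative fits. The 3 members called lower became 0 with no filter and 1 with quantile normalization, and lay between 2 and 4 when each library was left out. Members changed sign under quantile normalization (H2-D1 0.14, Tap1 0.055), rescaling to the same sum (H2-D1 0.043, Tap1 0.17, Tapbp 0.054, Psmb10 0.019), removal of the length trend (H2-D1 0.033, Psmb10 0.085), without control replicate B (Tap1 0.036, Psmb10 0.031) and without KO replicate C (Tap1 0.039). With each library left out, Tap1 ran from -0.032 to 0.039 and Psmb10 from -0.26 to 0.031. None of the values of changed sign was called, and the cause was not tested. Of the wider lists, 20 genes were called lower, 11 with no filter, 7 with rescaling, 12 without the length trend and 9 to 21 with a library left out. All genes called were 5872 with a mean of at least 5, where fewer genes were tested.

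In Myc-CaP, all genes called were 899, with 358 without a filter, 451 without the eBayes trend and 0 to 53 with a library left out (2055 to 2262 then had an unadjusted p under 0.05). The lone library of a group was assumed to vary like the other group. Members called higher were 5, 5 and 0 to 1 in the same fits, wider genes called higher 5, 4 and 0, and wider genes called lower 0, 0 and 0. The ratio of H2-K1 to B2m had log2 differences from -0.11 to 0.070 with a library left out, and Psmb9 to Psmb6 in epithelium from -0.16 to 0.041.

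Replicate names were shared between groups. Same-letter epithelium libraries did not deviate together (r across genes 0.041, 0.0094 and -0.057). With 2 libraries a group the deviations mirror each other, so the 2 Myc-CaP pairs share 1 value of r by construction (0.19). That value cannot decide whether these libraries were paired. With the replicate block, 2771 Myc-CaP genes were called, 9 members still higher, with 6 wider genes lower, and in epithelium Tap2 was added (adjusted p = 0.017).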
